A study of Mus musculus with 33 samples.

Results

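β-catenin (Ctnnb1), the proteins that mark it for destruction and the proteins it shares at cell junctions were examined at the transcript level in mouse livers and liver tumours that carried an activated β-catenin allele, an activated MYC transgene or both. The 10 genes were taken by symbol from the 21671 genes of the deposited expression table: Ctnnb1; Apc, Axin1, Gsk3b and Csnk1a1 of the destruction complex; the catenins Ctnna1, Ctnnd1 and Jup; and the cadherins Cdh1 and Cdh2. All 10 were found and all 10 passed the filter on low values in each set of libraries.

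Total RNA of 33 C57BL/6 livers or tumours was sequenced. On day 4 after an injection of AAV8-TBG-CRE, a virus that carries Cre recombinase behind a hepatocyte promoter, livers were taken from mice aged 6 to 8 weeks that were wild type (5), carried beta-cat Ex3, a β-catenin allele whose exon 3 Cre removes (Ex3, 5), carried R26-lslMYC, which Cre activates to express MYC from the Rosa26 locus (MYC, 5), or carried both alleles (MYC+Ex3, 5). The wild-type mice received the same virus, so Cre was shared by all 20 livers. The other 13 libraries were 7 wild-type livers taken on day 4 after 4-hydroxytamoxifen (4-OHT), 3 nodules of Alb-CreERT2/R26-lslMYC mice (MYC tumours) and 3 nodules of mice that also carried the Ex3 allele (MYC+Ex3 tumours). Alb-CreERT2 is a Cre driven by the albumin promoter, the labels name no Cre in the 4-OHT livers, and the treatment and age of the tumour-bearing mice are not given in the sources used here. The tissue was taken whole, so transcripts of cells without Cre activity are part of every value, and fewer cells of a type cannot be told apart from less RNA per cell.

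β-catenin has 2 known roles. At the membrane it links cadherins to α-catenin and the actin cytoskeleton, while a free pool is phosphorylated within the destruction complex of Axin, APC, casein kinase 1α and GSK3β and then degraded. Wnt signals block that complex, and the β-catenin that escapes enters the nucleus and activates genes with TCF and LEF factors, among them several inhibitors of the pathway itself. In liver this signal is strongest in hepatocytes around the central vein. The phosphorylated residues lie in exon 3, so a transcript without exon 3 gives a protein that escapes degradation, and the change acts on the protein rather than on the amount of mRNA.

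The exon that defines the Ex3 allele is shown because it holds the residues whose loss stabilises the protein. In the GENCODE transcript of Ctnnb1 on GRCm38, exon 3 of 15 lies on the plus strand at chr9:120950522-120950749, measures 228 bases, all of them coding, and runs from within codon 5 to within codon 81. In capitals are codons 33, 37, 41 and 45, which encode the serines and the threonine that GSK3β and casein kinase 1α phosphorylate.
Ctnnb1 exon 3: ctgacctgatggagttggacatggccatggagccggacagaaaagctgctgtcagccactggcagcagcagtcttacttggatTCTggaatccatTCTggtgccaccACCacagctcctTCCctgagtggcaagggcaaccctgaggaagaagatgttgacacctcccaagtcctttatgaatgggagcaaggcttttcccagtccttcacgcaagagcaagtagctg

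The exon makes up 6.29% of the 3623 bases of the transcript. If every Ctnnb1 transcript of a liver lacked it, a value per gene would change by -0.09 on the log2 scale. The table holds 1 value per gene, so neither the deletion nor the share of cells that carry it can be read from Ctnnb1 itself.

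Jup encodes plakoglobin (γ-catenin), the close relative of β-catenin that also sits in desmosomes, and it carries the same arrangement of phosphorylated residues. The stretches of both coding sequences are shown because this motif is what the Ex3 allele removes from Ctnnb1 and leaves in Jup. They cover codons 29 to 49 of Ctnnb1 and codons 20 to 40 of Jup, with the codons of the motif in capitals.
Ctnnb1: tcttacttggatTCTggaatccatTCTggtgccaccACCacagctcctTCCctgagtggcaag
Jup: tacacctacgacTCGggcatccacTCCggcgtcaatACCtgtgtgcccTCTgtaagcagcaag
The stretches were identical at 37 of 63 bases (58.7%), and each Jup codon in capitals (24, 28, 32 and 36) encodes the same amino acid as its counterpart in Ctnnb1.

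The unit is RPKM, reads scaled by the length of the gene and a total per library. Values are compared within the 20 day 4 livers and, separately, within the 13 tumours and 4-OHT livers. Reads in genes ran from 3.75 to 7.31 M in the first set and from 6.65 to 9.82 M in the second. The total per library followed these reads in the first set but not in the second. There, 4-OHT liver replicates 1 and 4 held 8.31 and 8.25 M reads in genes. Their totals were 5.81 and 6.78 relative to wild-type day 4 replicate 1. The RPKM of all genes summed to 68987 to 88185 in 4-OHT livers, 78172 to 94641 in MYC and 81400 to 97790 in MYC+Ex3 tumours. The highest RPKM of any gene in a library was only 220.3 to 395.5 in the first set and 42.9 to 67.5 in the second, and Alb, the main secretory transcript of hepatocytes, read 269 ± 27.1 RPKM (SD, n = 5) in wild-type day 4 livers beside 128 ± 5.83 for Ctnnb1. Whether the scale is compressed at its top was not tested. Within groups the log2 reads of Ctnnb1 rose by 0.598 per log2 unit of depth in the first set and by 0.511 in the second. In the first set its RPKM was thus lower in deeper libraries. This does not follow in the second set, where RPKM was not scaled by these reads. Among the 10 genes this slope ran up to 2.487 for Jup in the first set, with 2.041 for Cdh1 and 1.883 for Axin1, whose RPKM were higher in deeper libraries. Keratins of skin (Krt5, Krt14 and Krt17, summed above 1 RPKM) were present in 10 of the 20 day 4 livers, namely 3 wild-type, 3 Ex3, 1 MYC and 3 MYC+Ex3, which were also the shallower ones (3.75 to 5.10 M reads against 4.39 to 7.31 M). They are called livers with keratinocyte RNA below, by these keratins alone. Other keratinocyte markers were low in all day 4 livers, with Dsg3, Trp63 and Krt15 at most 0.202, 0.285 and 0.825 RPKM. Sfn ran from 1.42 to 4.99 RPKM. Whether keratinocytes are the source was not tested. Hepatocyte markers were high in every group, at summed levels of 1043 to 1876 RPKM in the first set and 197 to 335 in the second. In 2 Ex3 livers, replicates 3 and 4, the sum of 6 proliferation markers was 103 and 112 RPKM, against 10.2 to 15.7 in the other Ex3 livers, 4.84 to 14.1 in wild-type and 118 to 395 in MYC and MYC+Ex3 livers. Of the libraries that stood apart, MYC tumour replicate 1 had almost no Cdh1, MYC day 4 replicate 5 was far above its group for Ctnna1 and MYC+Ex3 day 4 replicate 3 was far below its group for Ctnnd1, and these results are given with and without them. MYC day 4 replicate 5 also held both the female transcript Xist (86.1 RPKM) and the Y-linked Ddx3y (4.74 RPKM), while Ddx3y was at most 0.134 in the other female day 4 livers and at least 30.6 in the male ones. Nothing in the labels says how the replicates were raised or sampled, and p-values measure the spread between these libraries.

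**Figure D1:**
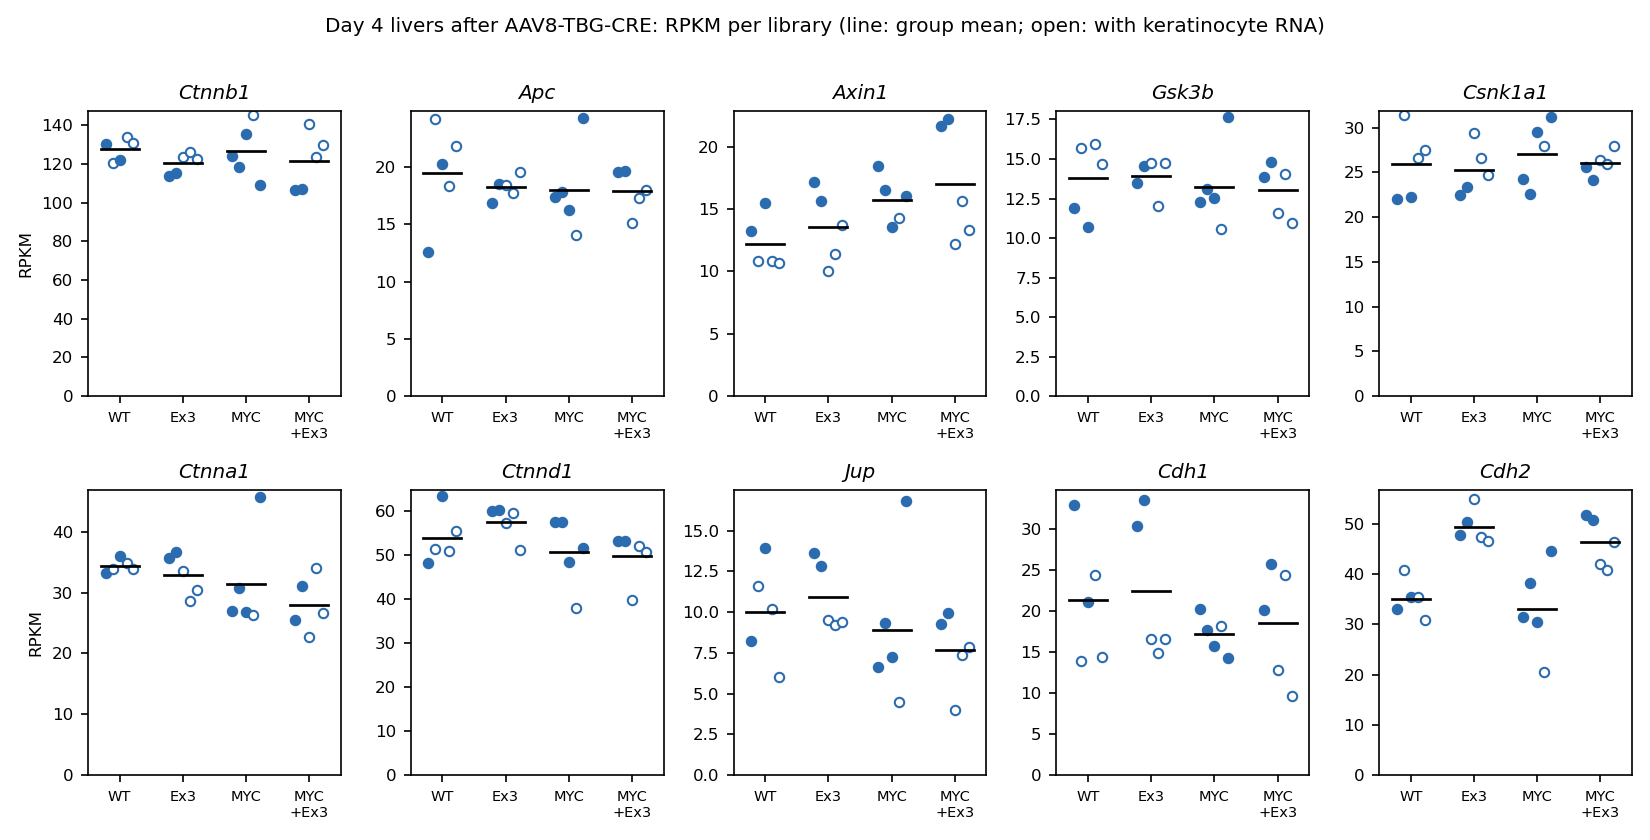
RPKM of the 10 genes in the 20 day 4 livers, 1 point per library, with the group mean as a line and open points for livers with keratinocyte RNA. The groups overlap for every gene except Cdh2, for which all 5 Ex3 livers (46.7 to 55.0) and all 5 MYC+Ex3 livers (40.9 to 51.8) lie above all 5 wild-type livers (30.8 to 40.8).

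Ctnnb1 mRNA did not pass the test in any comparison of the groups. In wild-type day 4 livers it read 131, 121, 122, 134 and 131 RPKM, in Ex3 livers 114, 115, 124, 126 and 123, in MYC livers 124, 119, 135, 145 and 109, and in MYC+Ex3 livers 107, 107, 141, 124 and 130. The 4 groups overlapped throughout. The log2 change was -0.08 ± 0.09 (SE) in Ex3 livers (limma on log2(RPKM + 1), Benjamini-Hochberg adjusted over all genes here and below, adjusted p = 1), within 1 SE of 0 and of the -0.09 given above. Against wild type it was -0.02 ± 0.09 with MYC alone (limma adjusted p = 0.915) and -0.08 ± 0.09 with both alleles (limma adjusted p = 0.586). The last of these passed when libraries were weighted by quality (-0.21, limma adjusted p = 0.0184). Livers with keratinocyte RNA averaged 130 ± 8.22 RPKM and livers without it 118 ± 9.79 (SD, n = 10 each). In 4-OHT livers Ctnnb1 ran from 20.4 to 27.9 RPKM with a median of 25.1, in MYC tumours it read 32.1, 23.3 and 24.5, and in MYC+Ex3 tumours 26.4, 27.9 and 29.1. Of the 6 tumours 3 were inside the range of the livers and 3 above it, and the log2 change was 0.14 ± 0.13 in MYC tumours and 0.21 ± 0.13 in MYC+Ex3 tumours (limma adjusted p = 0.379 and 0.165), and with median-ratio scaling -0.07 and -0.01.

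Across the 20 day 4 livers the genes whose log2(RPKM + 1) followed Ctnnb1 most closely were Tmco1 (Pearson r = 0.941), Vps35 (0.935) and Prdx4 (0.932), out of 9652 genes with a mean of at least 5 RPKM. Across the 13 tumours and 4-OHT livers they were the ribosomal protein genes Rps27 (0.972) and Rpl7a (0.971) and Fdft1, which encodes squalene synthase (0.970), out of 5473 genes. Among the genes of the complex and the junction, correlations with Ctnnb1 in the day 4 livers ran from -0.734 for Jup to 0.207 for Csnk1a1. Across the 13 tumours and 4-OHT livers they were -0.595 for Jup and -0.508 for Cdh1. They were positive there for Csnk1a1 (0.445), Axin1 (0.479), Ctnna1 (0.609), Ctnnd1 (0.612) and Cdh2 (0.714), of which all but Csnk1a1 were negative on day 4. Apc and Gsk3b had means under 5 RPKM there and were left out. These points share the libraries, their depths and, in the tumours and 4-OHT livers, the uneven scaling given above. Its part in the correlations and in their change of sign between the sets was not tested. The values are given as a description.

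Before the further results, the number of genes called gives the scale on which to read them. Among the 10 genes none was called at an adjusted p under 0.05 in the 5 pairwise comparisons of day 4 livers. Of all 13688 genes tested, limma called 0.132% in Ex3 livers against wild type, 22.3% in MYC livers against wild type, 24.1% in MYC+Ex3 livers against wild type, 0.19% in MYC+Ex3 against MYC livers and 21.1% in MYC+Ex3 against Ex3 livers. At an unadjusted p under 0.05 the 10 genes gave 1 (Cdh2), 0, 3 (Axin1, Ctnna1 and Cdh2), 1 (Cdh2) and 0 in the same order, and all genes 5.44%, 35.3%, 36.5%, 3.37% and 33.4%. Groups that did not overlap were found for 1, 0, 1, 0 and 0 of the 10 genes and for 1.59%, 13.3%, 17.2%, 0.679% and 20.3% of all genes. The test of whether the Ex3 change differed with MYC called 0 of the 10 genes and 0.0% of all genes, and an unadjusted p under 0.05 was found for 0 of the 10 and for 132 of all genes (0.964%). In the authors' deposited table, Cdh2 had an adjusted p under 0.05 in Ex3 against wild-type livers (log2 change 0.42, adjusted p = 0.0267, where 0.765% of genes did) and Ctnna1 in MYC+Ex3 against wild-type livers (-0.38, adjusted p = 0.00980, where 27.8% did). The authors' deposited table gave 0 of the 10 genes in MYC against wild-type livers (20.5% of genes) and 0 in MYC+Ex3 against MYC livers (0.276%).

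None of the 4 destruction complex genes passed the pairwise tests on day 4. Apc, the large scaffold of the complex and a tumour suppressor, ranged from 12.6 to 24.3 RPKM over the 20 livers, with log2 changes between -0.10 and 0.01 in the 5 comparisons. Gsk3b, the kinase that completes the phosphorylation of β-catenin, ranged from 10.6 to 17.7 RPKM, and Csnk1a1, the casein kinase that starts it, from 22.03 to 31.4 RPKM. The largest log2 change of either kinase was -0.09 ± 0.14 for Gsk3b in MYC+Ex3 against Ex3 livers. The groups overlapped for all of them.

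Axin1, the scaffold whose amount is thought to limit the complex, had the largest log2 changes of the complex. It read 13.2, 10.9, 15.5, 10.8 and 10.7 RPKM in wild-type livers, 17.2, 15.6, 10.0, 11.4 and 13.7 in Ex3 livers, 18.4, 16.5, 13.6, 14.3 and 16.0 in MYC livers, and 21.7, 22.2, 12.2, 15.7 and 13.4 in MYC+Ex3 livers. The highest values lay in MYC+Ex3 livers and the groups overlapped. Relative to wild type, Axin1 stood 0.35 ± 0.17 higher on the log2 scale with MYC alone (limma adjusted p = 0.154) and 0.42 ± 0.17 higher with both alleles (limma adjusted p = 0.0801). The average of the MYC change without and with the Ex3 allele, a contrast chosen after these values were seen, was 0.32 ± 0.12 and passed (limma adjusted p = 0.0422), in a contrast that called 39.3% of all genes. That call held in 8 of 20 fits with a single library removed, and it was lost with no filter on low values (adjusted p = 0.0585), with a sex covariate (0.27, adjusted p = 0.0702), with median-ratio scaling (0.24, adjusted p = 0.0781) and in livers without keratinocyte RNA (0.28, adjusted p = 0.0899). Axin1 was lower in livers with keratinocyte RNA (12.3 ± 1.86 RPKM) than in livers without (17.0 ± 3.04, SD, n = 10 each). Against wild type, the MYC+Ex3 value passed among livers without keratinocyte RNA (0.58, limma adjusted p = 0.0342), with keratinocyte RNA as a covariate (0.42, adjusted p = 0.00742), with quality weights (0.72, adjusted p = 0.00107), and without wild-type replicate 3 (0.51, adjusted p = 0.0462) or MYC+Ex3 replicate 3 (0.53, adjusted p = 0.0325). With weights it passed in MYC+Ex3 against Ex3 livers too (0.62, adjusted p = 0.00132). The part of the keratinocyte RNA and of the depth that goes with it was not tested.

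Of the catenins, Ctnnd1 (p120, which holds cadherins at the membrane) ranged from 38.0 to 63.5 RPKM in the day 4 livers and its groups overlapped. Its log2 change in MYC+Ex3 against wild-type livers was -0.11 ± 0.11, and -0.04 without MYC+Ex3 replicate 3 (limma adjusted p = 0.514 and 0.854). Ctnna1 (α-catenin, the link to actin) read 33.2, 33.9, 36.0, 34.9 and 33.9 RPKM in wild-type livers, 35.6, 36.6, 33.5, 28.7 and 30.4 in Ex3 livers, 27.0, 30.7, 26.9, 26.3 and 45.7 in MYC livers, and 25.5, 31.1, 22.6, 34.0 and 26.7 in MYC+Ex3 livers. Apart from MYC replicate 5 at 45.7, the MYC livers lay below every wild-type liver, and 1 of the 5 MYC+Ex3 livers lay inside the wild-type range. The log2 change of MYC+Ex3 against wild type was -0.30 ± 0.14 (limma adjusted p = 0.112). It passed with median-ratio scaling (-0.38, adjusted p = 0.0268) and with quality weights (-0.30, adjusted p = 0.0271). Without MYC replicate 5, which adds only to the spread of this comparison, it passed (-0.30, adjusted p = 0.0384), as did the change of MYC against wild type (-0.30, adjusted p = 0.0496 against 0.432 with it).

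Jup had the lowest group means of the 10 genes in the day 4 livers. It read 8.22, 11.6, 13.9, 10.2 and 6.01 RPKM in wild-type livers, 13.6, 12.8, 9.50, 9.21 and 9.41 in Ex3 livers, 6.60, 9.31, 7.22, 4.48 and 16.8 in MYC livers, and 9.28, 9.93, 3.99, 7.39 and 7.88 in MYC+Ex3 livers. The groups overlapped, and no log2 change passed the test. The largest was -0.49 ± 0.27 in MYC+Ex3 against Ex3 livers (limma adjusted p = 0.222). Without MYC replicate 5, the highest of the 20, the MYC change averaged over both Ex3 backgrounds was -0.48 and passed (limma adjusted p = 0.0284), against -0.35 with it (adjusted p = 0.153). Between 50 and 377 reads stood behind each of these values, the fewest of the 10 genes.

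Cdh2 (N-cadherin), which hepatocytes carry beside E-cadherin, was the only one of the 10 genes whose Ex3 livers did not overlap the wild-type livers on day 4. Wild-type livers read 33.1, 40.8, 35.5, 35.4 and 30.8 RPKM, and Ex3 livers 47.8, 50.4, 55.0, 47.5 and 46.7. MYC livers read 31.5, 38.3, 30.5, 20.5 and 44.6, and MYC+Ex3 livers 51.8, 50.9, 41.9, 40.9 and 46.4. All 5 Ex3 livers were above all 5 wild-type livers, a separation upward that 1.03% of all genes showed. All 5 MYC+Ex3 livers were also above all 5 wild-type livers, which 13.5% of genes showed, with the nearest values at 40.9 and 40.8. MYC replicate 5 overlapped the MYC+Ex3 livers. The log2 change was 0.49 ± 0.15 in Ex3 against wild-type livers (unadjusted p = 0.00334 and limma adjusted p = 0.456), 0.51 ± 0.15 in MYC+Ex3 against MYC livers (unadjusted p = 0.00218 and limma adjusted p = 0.427) and 0.39 ± 0.15 in MYC+Ex3 against wild-type livers (limma adjusted p = 0.0568). The last of these passed in 5 of 10 alternatives, namely with quality weights (0.52, adjusted p = 0.000446), a sex covariate (0.44, adjusted p = 0.0433), only those groups fitted (0.39, adjusted p = 0.0221), keratinocyte RNA as a covariate (0.39, adjusted p = 0.0347) and in livers without keratinocyte RNA (0.57, adjusted p = 0.0438). It also passed in 3 of 20 fits with a single library removed, wild-type replicate 2 (adjusted p = 0.0466), MYC replicate 4 (0.0108) or MYC replicate 5 (0.0312). With weights Ex3 against wild type (0.52, limma adjusted p = 0.0328) and MYC+Ex3 against MYC (0.58, adjusted p = 0.00631) passed as well. The Ex3 change without and with MYC differed by 0.03 ± 0.21.

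Averaged over both backgrounds, a contrast chosen after those values were seen, the Ex3 change of Cdh2 was 0.50 ± 0.10 and passed (limma adjusted p = 0.0229), in a contrast that called 0.628% of all genes and 0.592% as higher. Cdh2 was the only gene of the 10 called there. The size held between 0.42 and 0.56 whichever library was left out. The call was lost in 4 of those 20 fits, which left out wild-type replicate 5, Ex3 replicate 3 or MYC+Ex3 replicates 1 or 2 (adjusted p = 0.0534, 0.0559, 0.0595 and 0.0534). It was lost too in the 10 livers without keratinocyte RNA (0.51, adjusted p = 0.176). Mean Cdh2 was 40.6 ± 9.76 RPKM in livers with keratinocyte RNA and 41.4 ± 8.56 in livers without (SD, n = 10 each). The sum of 7 markers of stellate cells and fibroblasts, which also express Cdh2, ran from 172 to 189 RPKM in wild-type, from 151 to 192 in Ex3, from 110 to 183 in MYC and from 88.3 to 178 in MYC+Ex3 livers. Dcn makes up most of that sum, and single markers differed in direction: in Ex3 against wild-type livers Dcn averaged 107 and 118 RPKM and Lrat 26.3 and 28.1, while Pdgfrb averaged 6.55 and 4.69, Col1a1 4.24 and 1.72, Col1a2 4.47 and 2.72, and Des 6.90 and 5.48. Their part in the Cdh2 values was not tested. The 2 Ex3 livers with high proliferation markers read 55.0 and 47.5 RPKM of Cdh2, and the other 3 read 46.7 to 50.4.

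Cdh1 (E-cadherin, the main epithelial cadherin and the strongest around the portal vein) varied more between livers than between groups. It read 32.9, 13.96, 21.1, 24.3 and 14.4 RPKM in wild-type livers, 30.3, 33.6, 16.6, 14.8 and 16.6 in Ex3 livers, 20.3, 17.7, 15.7, 18.1 and 14.2 in MYC livers, and 20.1, 25.7, 12.8, 24.4 and 9.69 in MYC+Ex3 livers. No log2 change of the 5 pairwise comparisons passed the test, and the sizes ran from -0.27 to 0.06. The MYC change averaged over both Ex3 backgrounds was -0.25 (limma adjusted p = 0.329). It passed in livers without keratinocyte RNA (-0.55, limma adjusted p = 0.0229) and with a sex covariate (-0.38, adjusted p = 0.0430), 2 settings under which Axin1 lost its call in the same contrast. Livers with keratinocyte RNA averaged 16.6 ± 4.72 RPKM and livers without it 23.2 ± 7.06 (SD, n = 10 each).

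**Figure D2:**
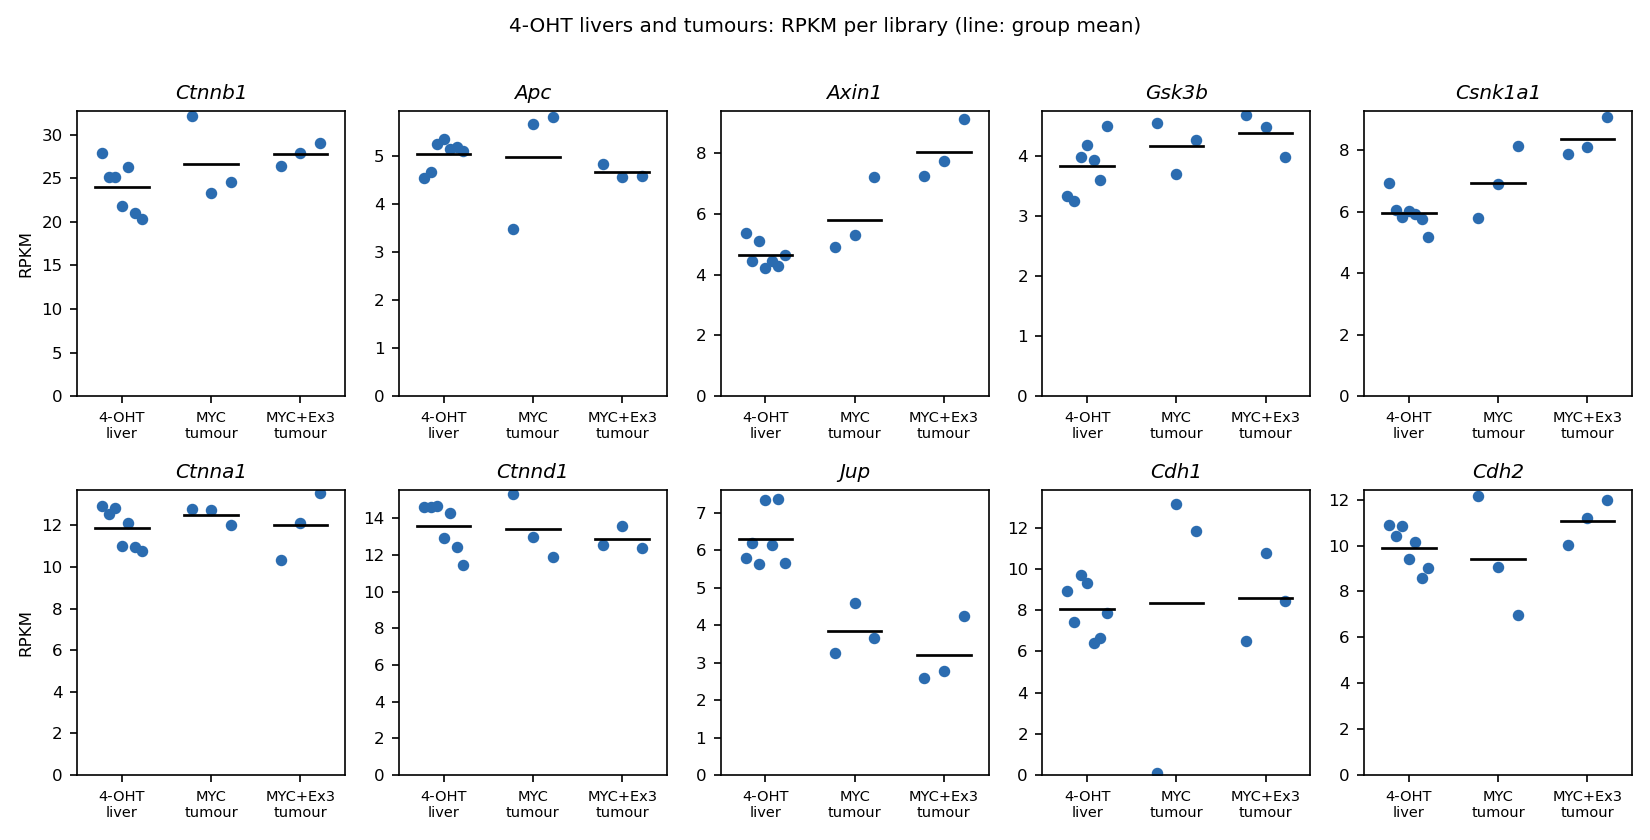
RPKM of the 10 genes in 7 4-OHT livers, 3 MYC tumours and 3 MYC+Ex3 tumours, 1 point per library, with the group mean as a line. All 6 tumours lie below all 7 livers for Jup, all 3 MYC+Ex3 tumours lie above all livers for Axin1 and Csnk1a1, and MYC tumour replicate 1 lies near 0 for Cdh1.

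In the tumours the largest change among the 10 genes that passed the test was a fall of Jup. It ran from 5.64 to 7.37 RPKM in the 7 4-OHT livers with a median of 6.14, and read 3.26, 4.59 and 3.67 in MYC tumours and 2.60, 2.78 and 4.25 in MYC+Ex3 tumours. Every tumour was below every liver. The log2 change was -0.60 ± 0.14 in MYC tumours (limma adjusted p = 0.00242) and -0.81 ± 0.14 in MYC+Ex3 tumours (limma adjusted p = 0.000152). Jup was the only gene of the 10 called in MYC tumours, where limma called 49.8% of all 11854 genes. Genes called as lower made up 13.7% of all 11854. Both comparisons share the same 7 livers. MYC+Ex3 tumours did not differ from MYC tumours beyond the spread (-0.21 ± 0.16, limma adjusted p = 0.543). Such a separation downward was shown by 8.89% of all genes in MYC tumours and 17.8% in MYC+Ex3 tumours. The fall also passed against the 4 livers with S14 numbers in their titles alone (-0.59 and -0.80) and against the 3 with S15 numbers alone (-0.61 and -0.83). The authors' deposited table gives -0.91 and -1.21 for the MYC and the MYC+Ex3 tumours, with Jup as the only 1 of the 10 genes it called in MYC tumours, beside 44.5% of all genes.

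Marker sums of non-hepatocyte cells, some of which express Jup, also differed between tumours and livers. The summed RPKM of 6 cholangiocyte markers ran from 9.97 to 14.7 in 4-OHT livers, from 6.68 to 19.7 in MYC tumours and from 3.67 to 8.45 in MYC+Ex3 tumours. The sum of 6 endothelial markers ran from 40.5 to 68.1, from 23.3 to 37.3 and from 25.0 to 29.7 in the same order, and that of 7 stellate and fibroblast markers from 31.7 to 40.8, from 18.2 to 35.9 and from 18.5 to 23.7. For 6 macrophage markers it ran from 94.8 to 133, from 26.6 to 96.5 and from 46.3 to 56.1. The endothelial sum of every tumour was below every liver, while the cholangiocyte sum of MYC tumours overlapped the livers on both sides. Single markers did not all follow the sums. Spp1, which makes up most of the cholangiocyte sum in the livers, averaged 10.5 RPKM in 4-OHT livers, 9.79 in MYC and 3.47 in MYC+Ex3 tumours. Sox9, another of these markers, went the other way, with 0.311, 0.452 and 1.84 RPKM in the same order. Clec4g, the highest endothelial marker in the livers, averaged 18.2 RPKM in 4-OHT livers, 5.10 in MYC and 3.56 in MYC+Ex3 tumours, whereas Pecam1 averaged 6.61, 7.91 and 5.09, Lyve1 6.95, 4.16 and 9.31, and the fibroblast gene Col1a1 1.72, 8.15 and 4.33. None of these markers was at 0 in all libraries of a group. Their part in the fall of Jup was not tested.

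Axin1 and Csnk1a1 rose in MYC+Ex3 tumours. Axin1 ran from 4.23 to 5.36 RPKM in 4-OHT livers with a median of 4.46, and read 4.92, 5.31 and 7.22 in MYC tumours and 7.24, 7.74 and 9.14 in MYC+Ex3 tumours. Each MYC+Ex3 tumour was above each other library, with the nearest pair at 7.24 and 7.22. The log2 change against 4-OHT livers was 0.68 ± 0.12 in MYC+Ex3 tumours (limma adjusted p = 0.000210) and 0.26 ± 0.12 in MYC tumours (limma adjusted p = 0.0802). Between the tumours it was 0.42 ± 0.14 (unadjusted p = 0.00960 and limma adjusted p = 0.121), which passed with median-ratio scaling (0.41, adjusted p = 0.0356) and without MYC tumour replicate 3 (0.56, adjusted p = 0.0245).

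Csnk1a1 ran from 5.17 to 6.91 RPKM in 4-OHT livers with a median of 5.91, and read 5.78, 6.90 and 8.12 in MYC tumours and 7.89, 8.10 and 9.07 in MYC+Ex3 tumours. The MYC+Ex3 tumours were above all livers and the MYC tumours overlapped both groups. Among all genes 38.2% were above all livers in MYC+Ex3 tumours. The log2 change was 0.43 ± 0.11 in MYC+Ex3 tumours (limma adjusted p = 0.00343) and 0.18 ± 0.11 in MYC tumours (limma adjusted p = 0.174). In MYC+Ex3 tumours limma called 60.6% of all genes, 42.3% as higher and 18.4% as lower, so that 3 called of these 10 genes is below the share of all genes. The median log2 change of all genes tested was 0.23 in that comparison and 0.19 in MYC tumours, against 0.11 and 0.03 for the 10 genes. The summed RPKM also differed between these libraries, as given above, and the part of the scaling in the shift of all genes was not tested. Scaling that removes the shift gave 0.48 for Axin1, 0.23 for Csnk1a1 and -0.99 for Jup in MYC+Ex3 tumours, each still called. With that scaling the calls over all genes split into 27.0% higher and 23.5% lower in MYC tumours, against 36.2% and 13.7% without it, and into 33.7% and 27.3% in MYC+Ex3 tumours.

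Apc and Gsk3b did not pass the test in either tumour. Apc ran from 4.55 to 5.36 RPKM in 4-OHT livers, from 3.49 to 5.83 in MYC tumours and from 4.57 to 4.84 in MYC+Ex3 tumours. Gsk3b ran from 3.24 to 4.49, from 3.69 to 4.55 and from 3.98 to 4.67 in the same order. Ctnna1 (10.8 to 12.9, 12.04 to 12.8 and 10.3 to 13.5) and Ctnnd1 (11.4 to 14.7, 11.9 to 15.4 and 12.4 to 13.6) overlapped between all groups. Relative to the shift of all genes, that is with median-ratio scaling, Ctnna1 (-0.20, limma adjusted p = 0.0338) and Ctnnd1 (-0.28, adjusted p = 0.0247) were lower in MYC+Ex3 tumours, while without it their log2 changes were 0.01 and -0.07. The authors' deposited table called 6 of the 10 genes in this comparison, where it called 60.7% of all genes. They were Axin1 and Csnk1a1 as higher and Apc, Ctnna1, Ctnnd1 and Jup as lower.

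**Figure D3:**
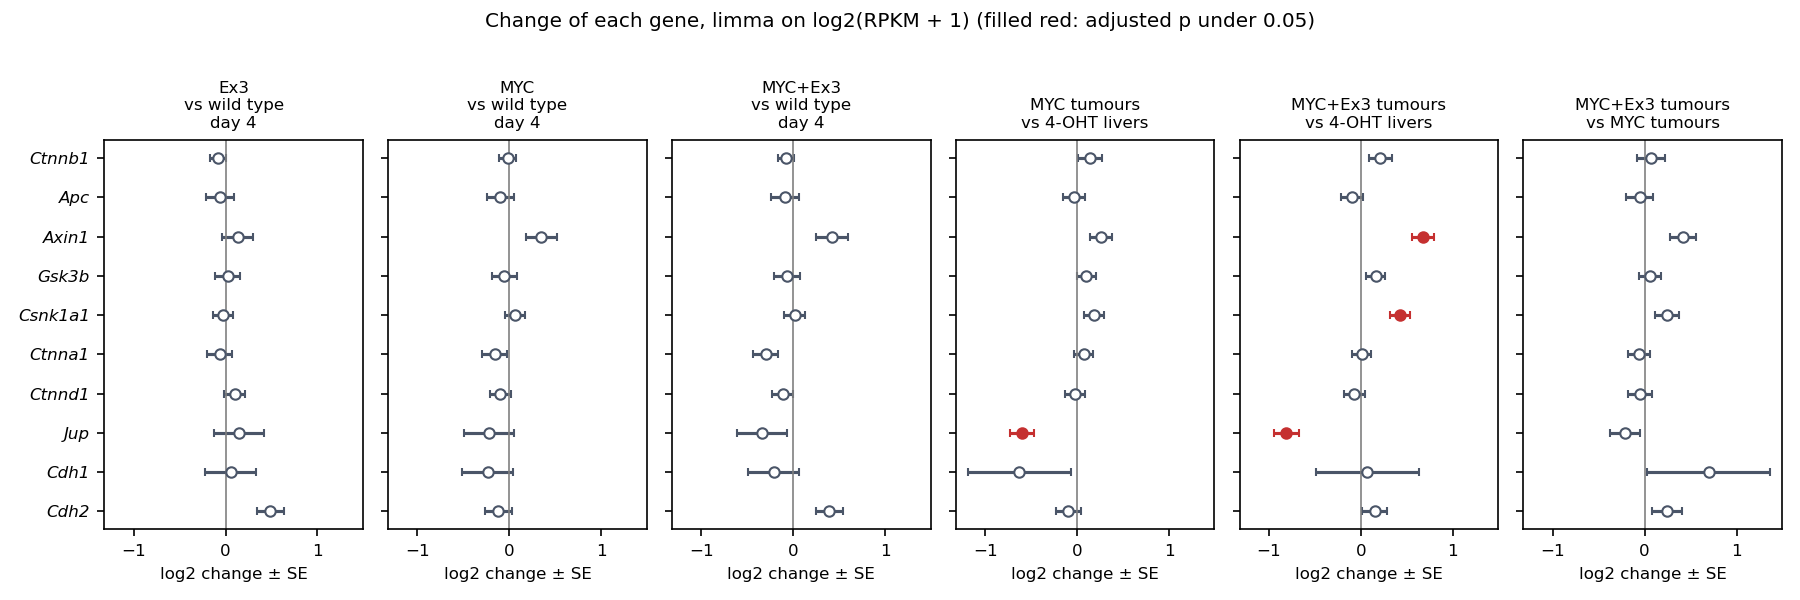
Log2 change ± SE of each gene in 6 comparisons, with red filled points for an adjusted p under 0.05. The red points are Jup in both tumours and Axin1 and Csnk1a1 in MYC+Ex3 tumours, and the long bars of Cdh1 in the tumour panels come with MYC tumour replicate 1.

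Cdh2 in the tumours ran from 8.58 to 10.9 RPKM in 4-OHT livers, read 12.2, 9.06 and 6.97 in MYC tumours and 10.02, 11.2 and 11.99 in MYC+Ex3 tumours. The groups overlapped, and MYC+Ex3 tumours stood 0.24 ± 0.16 above MYC tumours on the log2 scale (limma adjusted p = 0.475). Whether this differs from the change of 0.50 on day 4 was not tested.

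Cdh1 was almost absent from a single tumour. The 7 4-OHT livers ran from 6.39 to 9.70 RPKM with a median of 7.89, the MYC+Ex3 tumours read 6.503, 10.8 and 8.47, and the MYC tumours read 0.0761, 13.2 and 11.8. MYC tumour replicate 1 held 9 reads of Cdh1 and lay 84.0-fold below the lowest of the other 12 libraries, while the other MYC tumours were the highest of all 13. With all libraries the log2 change in MYC tumours was -0.63 ± 0.56 (limma adjusted p = 0.374). Without that tumour it was 0.59 and passed (limma adjusted p = 0.0124), with 2 MYC tumours left. Axin1 (0.35, adjusted p = 0.0332) and Csnk1a1 (0.29, adjusted p = 0.0452) passed in MYC tumours without it too, so that 4 of the 10 genes were called there in place of 1, while limma called 52.0% of all genes without that tumour.

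Few other genes were as low in MYC tumour replicate 1. Of 3188 genes with at least 5 RPKM in each of the other 12 libraries, 2 were at least 10-fold below the lowest of them in this tumour, Cdh1 and Mmd2 (0.215 RPKM against at least 10.0). The next gene, the zinc transporter Slc39a4, was 5.98-fold below. Cdh1 lies on mouse chromosome 8, and the protein-coding genes near it in the RefSeq annotation of GRCm38 were read in the same libraries. Cdh3 (P-cadherin), on one side, read 0.0943 RPKM in this tumour within a range of 0.0264 to 0.616 in the others, and Tango6, on the other side, read 1.21 within 1.09 to 3.34. Farther out, Zfp90 (0.272 against 0.377 to 0.936) and Smpd3 (0.379 against 0.420 to 1.55) were just below the others, while Prmt7 (6.69), Has3 (0.347) and Chtf8 (17.2) were within their ranges. Cdh3, Zfp90, Smpd3 and Has3 were low in every library, with medians of 0.148, 0.690, 0.695 and 0.407 RPKM in the other 12. Values this low say little on whether the region beside Cdh1 was intact, which was not tested.

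Other epithelial genes were present in that tumour. Krt8 and Krt18, the keratins of hepatocytes, read 44.4 and 46.9 RPKM, above the other 12 libraries (20.7 to 36.2 and 22.4 to 34.3). Dsp (desmoplakin) read 5.88 within 4.22 to 8.55, Ocln (occludin) 6.56 within 2.88 to 10.1 and Cldn1 (claudin-1) 21.4 within 2.09 to 23.3. Pkp2 (plakophilin-2) and Pkp4 (p0071) were higher than in any other library, at 8.30 and 10.7 RPKM, and Tjp1 (ZO-1) at 5.74 and the p120 relative Arvcf at 1.74 were lower than in any other. Among the catenins of the same library, Ctnnb1 (32.1) and Ctnnd1 (15.4) were the highest of the 13 libraries, Ctnna1 (12.8) was within their range, and Cdh2 (12.2) was the highest. Cholangiocyte keratins were low there, with Krt19 at 0.0915 and Krt7 at 0.0264 RPKM, but MYC tumour replicate 3, whose Cdh1 was 11.8, also had little of them (0.138 and 0.102).

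**Figure D4:**
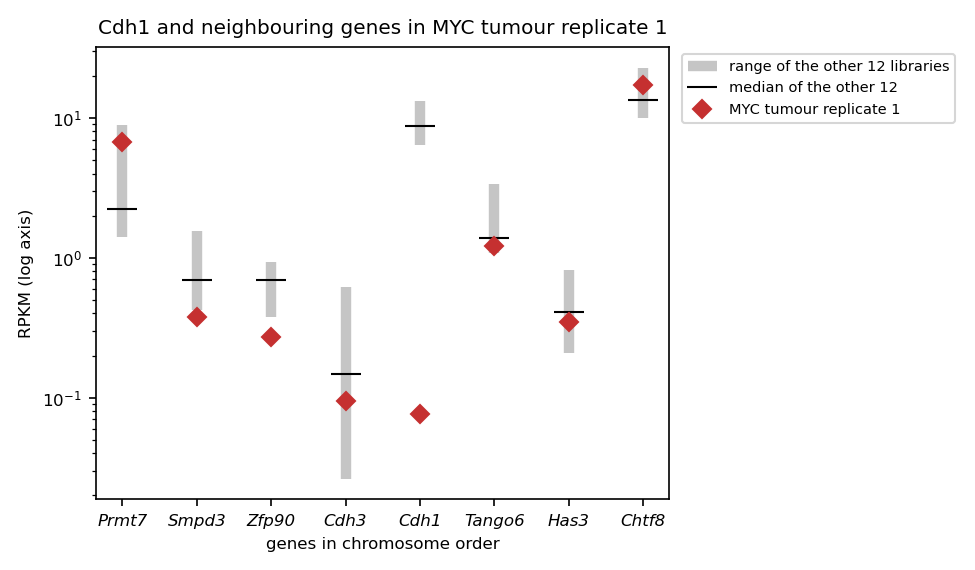
RPKM on a log axis of Cdh1 and its neighbours in chromosome order in MYC tumour replicate 1 (red) beside the range (grey) and median (black) of the other 12 libraries. Cdh1 is 84.0-fold below the grey range, while each neighbour is within its range or close under it. Cdh3, Zfp90, Smpd3 and Has3 are low in every library.

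Ratios within a library do not depend on how the library was scaled, but they can still follow its depth. Within groups the log2 reads of Jup rose by 2.487 per log2 unit of depth in day 4 livers, against 0.598 for Ctnnb1. In the tumours and 4-OHT livers the values were 1.605 and 0.511. The part of depth in the ratios was not tested. The RPKM of Jup relative to Ctnnb1 averaged -1.92 ± 0.29 on the log2 scale in the 7 4-OHT livers, -2.79 ± 0.48 in the 3 MYC tumours and -3.15 ± 0.32 in the 3 MYC+Ex3 tumours (mean ± SD). Both differences (-0.87 and -1.22) reached the smallest p that a two-sided exact permutation test of 3 against 7 libraries can give here, p = 0.0167, and after adjustment over 24 tests neither passed (adjusted p = 0.2). The ratio of Ctnna1 to Ctnnb1 was 0.21 lower in MYC+Ex3 tumours than in 4-OHT livers on the log2 scale (difference -0.21, exact permutation p = 0.05 and adjusted p = 0.4). The ratio of Cdh1 to Cdh2 ran from -0.79 ± 0.58 in wild-type to -1.41 ± 0.60 in MYC+Ex3 day 4 livers (mean log2 ratio ± SD, n = 5 each, exact permutation p = 0.135 and adjusted p = 0.550). None of the 24 tests passed after adjustment.

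The other genes of the pathway were followed in 5 lists that held 90 symbols, of which 85 were in the table and 75 were tested in day 4 livers. In Ex3 livers 3 of the 75 rose and 0 fell: Axin2, a target and inhibitor of the pathway (3.32 ± 0.61 RPKM in wild-type and 18.4 ± 5.37 in Ex3 livers, log2 change 2.13 ± 0.35, limma adjusted p = 0.0123), Lgr5, a receptor that amplifies Wnt signals (1.64 ± 0.32, adjusted p = 0.0406), and Znrf3, a ligase that removes Wnt receptors (1.02 ± 0.19, adjusted p = 0.0258). In single livers Axin2 read 2.73, 3.24, 4.30, 3.40 and 2.92 RPKM in wild type and 24.9, 20.8, 19.7, 16.2 and 10.6 with Ex3. The groups did not overlap. In MYC+Ex3 against MYC livers 5 rose and 0 fell, namely the same 3 genes (Axin2 2.18, Lgr5 1.71 and Znrf3 0.94 on the log2 scale), the ligase Rnf43 (1.52, limma adjusted p = 0.0345) and the transcription factor Tcf7 (1.13, adjusted p = 0.0376). Over all genes 0.132% and 0.19% were called in these comparisons. The median log2 change of the 75 genes was 0.02 and -0.02 in these comparisons, against 0.01 and -0.01 for all genes. The 3 calls in Ex3 livers fell to 1 without wild-type replicates 1 or 4 or Ex3 replicates 2 or 4, to 0 without Ex3 replicate 3 and to 0 in the livers without keratinocyte RNA, and the 5 calls in MYC+Ex3 against MYC livers fell to 1 in the livers without keratinocyte RNA and to 1 without MYC replicates 1, 3 or 4 or MYC+Ex3 replicates 1, 2, 3 or 5. The log2 changes of these genes had the sizes above, and Axin2 did not overlap between the groups in either comparison.

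In MYC livers 2 of the 75 genes rose and 6 fell against wild type, where limma called 16.9% of all genes as higher and 5.36% as lower. Ctnnal1 (α-catulin), an α-catenin relative, rose by 0.73 ± 0.18 (limma adjusted p = 0.00486) and so did the Wnt receptor Fzd9, whose mean was under 1 RPKM. Those that fell were Lrp6 (37.3 ± 3.93 to 26.1 ± 4.74 RPKM, log2 change -0.52 ± 0.11, limma adjusted p = 0.00254) and Lgr4 (-0.51), receptors of the pathway, Rnf146 (-0.42), a ligase that degrades Axin, the co-repressor Tle1 (-0.48), the desmosomal cadherin Dsg2 (-0.46) and the claudin Cldn12 (-0.40). No gene of the lists differed in its Ex3 change with MYC (0 called by limma). In MYC+Ex3 against wild-type livers 6 rose and 6 fell, beside 17.9% higher and 6.18% lower over all genes. Ctnnal1 rose there too (0.59) and Lrp6, Lgr4, Rnf146, Dsg2 and Cldn12 fell, with the nectin Pvrl3 (-0.44). In MYC+Ex3 against Ex3 livers, where 16.4% of all genes were higher and 4.7% lower, 3 rose and 5 fell, with Tnks2 (0.32), a tankyrase that marks Axin for degradation, and Ctnnal1 (0.64) as higher and Fzd8 (-1.19), Pvrl2 (-0.75), Cldn2 (-0.69), Arvcf (-0.68) and Cldn12 (-0.26) as lower. With median-ratio scaling the split of all genes in these 3 comparisons was 13.8% higher and 9.53% lower, 15% and 9.52%, and 14.2% and 7%.

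In the tumours 71 of these genes were tested. MYC tumours had 18 higher and 18 lower than 4-OHT livers, and MYC+Ex3 tumours 24 higher and 16 lower. Called in all were 36 and 40 of 71, about the share of all genes called (49.8% and 60.6%). In the list of the destruction complex and its ligases 8 of 15 were higher and 1 lower in MYC tumours, and 11 were higher and 0 lower in MYC+Ex3 tumours, with a median log2 change of 0.24 and 0.37 beside 0.19 and 0.23 for all genes. Over all genes the calls also leaned upward. Of the 49.8% called in MYC tumours, 13.7% of all genes were lower, and in MYC+Ex3 tumours 42.3% were higher and 18.4% lower. The splits with median-ratio scaling are given above, and whether this list differs from all genes was not tested. Csnk1e, the casein kinase 1 that acts on Dishevelled, rose from 1.17 ± 0.12 RPKM in 4-OHT livers to 2.29 ± 0.29 in MYC tumours and 3.93 ± 1.11 in MYC+Ex3 tumours. Its log2 change was 0.60 ± 0.12 (limma adjusted p = 0.00131) and 1.17 ± 0.12 (adjusted p = 3.47e-06), and the tumours differed by 0.56 ± 0.15 (adjusted p = 0.0467). Tnks2 rose by 0.65 and 0.88 in the same order.

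Axin2 and Tcf7, genes that respond to β-catenin, fell in MYC tumours and rose in MYC+Ex3 tumours. Axin2 ran from 0.793 to 1.995 RPKM in 4-OHT livers with a median of 1.39, read 0.332, 0.660 and 0.0946 in MYC tumours and 10.7, 7.63 and 11.3 in MYC+Ex3 tumours. The 3 groups did not overlap. The log2 change against livers was -0.81 ± 0.17 in MYC tumours (limma adjusted p = 0.00154) and 2.19 ± 0.17 in MYC+Ex3 tumours (adjusted p = 2.74e-07). Tcf7 (-0.70 and 1.66) followed the same order and so did Lgr5 (-0.56, limma adjusted p = 0.00136, and 1.38). Rnf43 fell in MYC tumours (-1.05, adjusted p = 0.00845). Znrf3 did not follow them, since it rose in both, from 1.68 ± 0.28 RPKM in 4-OHT livers to 2.73 ± 0.93 in MYC tumours (0.45 ± 0.15, adjusted p = 0.0211) and 8.45 ± 0.92 in MYC+Ex3 tumours (1.82 ± 0.15, adjusted p = 3.88e-07). Between the tumours 7 of 71 were higher and 2 lower with Ex3, where limma called 4.13% of all genes. Axin2 (3.003), Tcf7 (2.35), Rnf43 (2.11), Lgr5 (1.94), Znrf3 (1.37) and Csnk1e (0.56) were among the higher ones, and Cdh5, the endothelial cadherin, was lower (-0.55 ± 0.14, adjusted p = 0.0440). None of the 10 genes was called between the tumours, with 1 of them, Axin1, at an unadjusted p under 0.05 (17.6% of all genes) and 0 of 10 in the authors' deposited table (4.49%). Axin1 was also the only one whose tumour groups did not overlap, which 8.59% of all genes did upward.

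**Figure D5:**
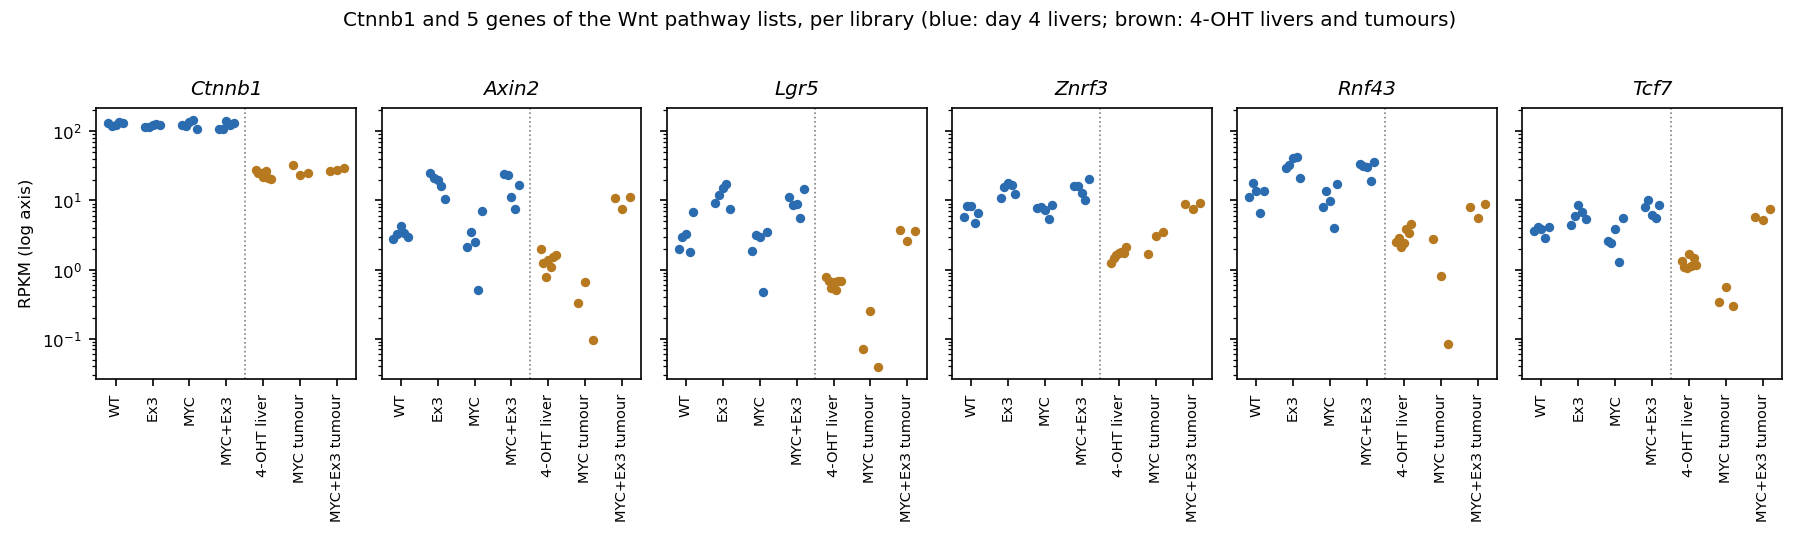
RPKM on a log axis of Ctnnb1 and of Axin2, Lgr5, Znrf3, Rnf43 and Tcf7, 1 point per library, in day 4 livers (blue) and in 4-OHT livers and tumours (brown), which are not compared with each other. Ctnnb1 stays between 107 and 145 in the blue groups, whereas Axin2 in MYC tumours (0.0946 to 0.660) and MYC+Ex3 tumours (7.63 to 11.3) is far apart.

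Among the junction lists, Jup's partners in the desmosome were tested with the tight junction genes. Of 17 desmosome and tight junction genes tested, 3 rose and 7 fell in MYC tumours, and 2 rose and 6 fell in MYC+Ex3 tumours, with a median log2 change of -0.15 and -0.16 beside 0.19 and 0.23 for all genes. Over all genes 36.2% rose and 13.7% fell in MYC tumours and 42.3% rose and 18.4% fell in MYC+Ex3 tumours, and whether the list differs from them was not tested. Dsc2 (desmocollin-2) fell from 8.70 ± 1.74 RPKM in 4-OHT livers to 3.67 ± 1.49 in MYC tumours (log2 change -1.09 ± 0.20, limma adjusted p = 0.000593) and 1.81 ± 0.50 in MYC+Ex3 tumours (-1.78 ± 0.20, adjusted p = 5.74e-06). It binds plakoglobin, the product of Jup, in the desmosome. Cldn2, a claudin of hepatocytes near the central vein, fell by 1.65 and 1.57 on the log2 scale, Cldn14 (-0.99) fell in MYC tumours and Cldn3 (-1.57) in MYC+Ex3 tumours. Of 10 other adherens junction genes, 2 rose and 1 fell in MYC tumours, and 2 rose and 3 fell in MYC+Ex3 tumours. Ctnnal1 rose in both (1.05 ± 0.18 and 1.60 ± 0.18, adjusted p = 0.000272 and 4.36e-06). Pkp4 (0.35) rose and Pvrl2 (-0.59) fell in MYC tumours, and Plekha7 (0.78), which anchors junctions to microtubules, rose and Cdh5 (-0.83) fell in MYC+Ex3 tumours. The endothelial sum was lower in these tumours while Lyve1 was not, as given beside Jup, and their part in the value of Cdh5 was not tested.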

How the data were processed

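The submitters' processing notes name TopHat2 2.0.8, featureCounts 1.4.5-p1, SAMtools, DESeq2 and mm9, with no order or settings. The authors deposited RPKM per gene and library, and 0 columns belonged to no sample of the series. The authors' deposited log2 fold changes and adjusted p-values are quoted where named. Whole reads behind the RPKM were recovered for 100% of 20485 genes (tolerance 0.001 reads) and give the depths. Tested on simulated reads, every library's value came out exact for 95.16% of 20227 genes.

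Genes with at least 1 RPKM in 3 or more libraries of a fit were tested as log2(RPKM + 1) with limma 3.58.1 (R 4.3.3, two-sided, with a mean-variance trend), adjusted by Benjamini-Hochberg, in 1 fit for the 20 day 4 livers and 1 for the 13 other libraries. This scale understates changes of low genes. Replicate numbers follow the order of the records. Ratios were compared with exact permutation tests (SciPy 1.17.1). Named from the pathway lists are up to 3 called genes per list and comparison with the largest change and a mean of at least 1 RPKM. Others named beside them, such as Fzd9, the genes low in MYC tumour replicate 1 and its junction genes, were chosen after their values were seen. The genes examined and all lists were chosen with earlier results of these data known. The build of the files is mm9. Sequences and places come from GENCODE and RefSeq on GRCm38, and transcript sequence was matched by gene symbol for Ctnnb1 and Jup. Sequences of the other 8 genes were not used here.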

Additional observations from a re-analysis of the deposited data

Results flagged for a closer look

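In 2 of 50 sets of values (a gene in a group of 5 or 7 libraries) a single library lay far from the rest by Dixon's test, which chance gives in about 1 set of 20. Ctnna1 in MYC day 4 replicate 5 read 45.7 RPKM, above the 26.3 to 30.7 of the other MYC livers, with a gap of 0.773 of the group's range (critical value 0.71). The same liver had the highest Jup (16.8), Apc (24.3) and Gsk3b (17.7) of the 20 day 4 livers. It also held both Xist (86.1 RPKM) and Ddx3y (4.74 RPKM), and the part of this in its values was not tested. Ctnnd1 in MYC+Ex3 day 4 replicate 3 read 39.9 RPKM, below the 50.8 to 53.2 of the others, with a gap of 0.821 of the range (critical value 0.71). Groups of 3 tumours were not tested this way, so the low Cdh1 of MYC tumour replicate 1 is not among these.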

How the results depend on the processing

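No paired analysis was possible because the replicate numbers follow the order of the records and tie no library to another. Jup in both tumours, and Axin1 and Csnk1a1 in MYC+Ex3 tumours, were called under all 9 alternatives and without each of the 13 libraries. Of 104 results of the 10 genes that were not called, 86 were called under no alternative and in no fit with a library left out. The sign changed under at least 1 setting in 71 of the 104, and in 0 of the 6 called results. The settings under which Axin1, Cdh1 and Cdh2 lost or gained day 4 calls stand beside their values in the report.

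Of the 10 genes, the number called with library quality weights was 1 in Ex3 against wild-type livers (0 without weights), 4 in MYC+Ex3 against wild type (0), 1 in MYC+Ex3 against MYC (0), 1 in MYC+Ex3 against Ex3 (0) and 2 in the averaged MYC contrast (1), while limma then called 0.453%, 46.9%, 0.57%, 49% and 53.6% of all genes. With median-ratio scaling it was 1 in MYC+Ex3 against wild-type livers, 2 in the averaged MYC contrast, 5 in MYC+Ex3 tumours against 4-OHT livers (3) and 1 between the tumours (0), beside 24.5%, 41.2%, 61.1% and 4.91% of all genes, and Ctnna1 in MYC+Ex3 tumours turned from 0.01 to -0.20. In MYC+Ex3 against wild-type livers it was 1 with a sex covariate, 1 with only those groups fitted, 2 with a keratin covariate and 2 in livers without keratinocyte RNA, beside 19.8%, 22.9%, 30.3% and 22.5% of all genes. In those livers it was 0 in the averaged Ex3 contrast (1), beside 0.135% of all genes, and in the averaged MYC contrast it was 0 with no filter and 3 with the keratin covariate (25.2% and 44.5%). When each library was left out it ran from 0 to 1 in MYC against wild-type livers, 0 to 2 in MYC+Ex3 against wild-type livers, 0 to 1 in the averaged Ex3, 0 to 2 in the averaged MYC contrast, 1 to 4 in MYC tumours and 0 to 1 between the tumours. Over all genes the same fits called 16.4% to 25.6%, 17.5% to 27.8%, 0.439% to 0.836%, 35.4% to 41.6%, 37.8% to 52.0% and 1.69% to 6.5%. Without MYC tumour replicate 1, Cdh1 in MYC tumours turned from -0.63 to 0.59, the highest of its values with a library left out, of which the lowest was -1.27. The causes were not tested.

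Of the pathway genes, Ex3 against wild-type livers (3 called) gave 1 with only those groups fitted and 0 both in livers without and in livers with keratinocyte RNA. MYC against wild type (8) gave 13 with weights, 5 with only those groups, 15 with the keratin covariate and 0 without keratinocyte RNA. MYC+Ex3 against wild type (12) gave 29 with weights. MYC+Ex3 against MYC (5) gave 1 with a pseudocount of 0.1, 1 with no filter, 0 with only those groups and 1 without keratinocyte RNA. MYC+Ex3 against Ex3 (8) gave 5 with no filter, 30 with weights, 5 with the sex covariate, 13 with the keratin covariate, and 2 each in livers without and with keratinocyte RNA. MYC tumours (36) gave 21 against S15 livers only, and the tumours against each other (9) gave 4 with only those groups. Leaving out each library gave 0 to 4, 5 to 14, 1 to 5 and 3 to 11 in Ex3 against wild type, MYC against wild type, MYC+Ex3 against MYC and MYC+Ex3 against Ex3. It gave 21 to 35 in MYC tumours and 5 to 9 between the tumours.

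Jup rests on 50 to 377 reads per day 4 liver, and 3 libraries per tumour group limit the tests there.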
